A study of Drosophila melanogaster with 29 samples.

Results

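The innexins are the membrane proteins that form gap junctions in insects, and 8 of the 17612 genes in the deposited tables encode them. The 8 genes shakB, Inx6, Inx7, ogre, Inx2, Inx3, Inx5 and zpg were selected by gene symbol and were followed through every kind of library by their FlyBase identifier. No measured value entered this rule, but the members, their roles and the marker lists were chosen with earlier results of these data known. Innexins assemble into channels, and channels of apposed membranes dock to join the cytoplasm of neighbouring cells, so that current and small molecules pass directly. In neurons such channels form electrical synapses, whereas glia and epithelia use them to couple into sheets. Here shakB, the innexin of the electrical synapses of the fly giant fibre circuit, was grouped with Inx6 and Inx7, which are known from neurons of the mushroom body, as neuronal innexins. The gene ogre and Inx2, which are both needed in glia for the nervous system to form, were grouped as glial innexins. The others were Inx3, a partner of Inx2 in epithelial channels, zpg, the germline innexin, and Inx5.

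The study sequenced RNA from neurons of the Drosophila central complex, the brain region that holds the compass network for head direction, together with RNA of brain tissue. All flies were female and 3 to 5 days old, 60 to 100 brains were pooled for a sample, and the neurons carried a nuclear red reporter, nlstdTomato, under a cell-type driver line and were collected by fluorescence-activated sorting. The bulk libraries came from 754 to 1270 cells and comprised 4 of D7 neurons (drivers SS02238 and SS30295, 2 libraries each), 4 of EPG neurons (drivers SS00096 and SS00131, 2 libraries each), 2 of PEG neurons (driver SS02191) and 2 of PEN2 neurons (driver SS02232), beside 2 of whole-brain RNA (WB, 5 ng). The low-cell libraries comprised 14 of 35 PEN2 neurons each (SS02232), 7 of 40 R4d neurons each (SS00238) and 8 of 50 pg of central brain RNA without optic lobes (CB). The labels list R4d and CB as 1 sample each and PEN2 as 2, so the low-cell libraries are replicates within a sample. The single-cell libraries lay on 6 plates of PEN1 neurons (SS62862) and 5 plates of PEN2 neurons (SS02232). No driver line is listed for WB and CB. A driver line marks every cell in which it is active, so a group is the fluorescent cells of a line and not a cell type known to be pure. The sample numbers of WB have another prefix than those of the sorted libraries, and whatever it stands for cannot be told apart from sorted cells against brain. The middle part of the sample numbers also divides the sorted libraries, and its meaning is not given. EPG shares no middle number with D7 or PEG, so these differences cannot be told apart from it. PEN2 replicate 1 shares it with PEG and D7 SS30295, and PEN2 replicate 2 with EPG SS00131.

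Some libraries stood apart from their labels. In PEG replicate 1, the sorted library with the highest glial level, 21 glia markers summed to 3622.9 FPKM, against 220.34 in PEG replicate 2, 4.52 to 52.43 in the other 10 sorted libraries and 998.91 and 1046.5 in WB. FPKM are fragments scaled to gene length and to the size of the library. The glial master gene repo stood at 3.80 FPKM in PEG replicate 1 and 0.10 in replicate 2, mitochondrial transcripts made up 34.0% and 2.51% of the FPKM, so levels are given for each PEG replicate and the innexin calls that involve PEG also without replicate 1. PEN2 replicate 1 held 210.75 FPKM of Gad1, the enzyme of GABA synthesis, against 2.83 in replicate 2 and 0.00 to 16.76 in the other sorted libraries. Both EPG SS00131 libraries held VGlut, the vesicular glutamate transporter (41.28 and 26.24 FPKM), which stood at 0.12 and 0.03 in the EPG SS00096 libraries. Otherwise VGlut and VAChT followed the labels in bulk. VGlut marked D7 (311.03 to 402.42 FPKM), and the acetylcholine transporter VAChT marked EPG, PEG and PEN2 (55.44 to 160.73, against 0.16 to 9.93 in D7). Gad1 was at 539 to 695 CPM (gene counts scaled to a common library size) in the low-cell R4d libraries. It was at 0.00 to 67.7 CPM in low-cell PEN2 and, overlapping R4d, at 289 to 552 in CB. The other R4d marker, VGAT, did not set R4d apart (96.2 to 197 CPM, against 0.00 to 101 in PEN2 and 159 to 236 in CB). The 6 neuron markers were detected in all bulk and low-cell libraries. Reporter transcripts were at 7.06 and 7.13 FPKM in WB, against 193 to 1525 FPKM in the sorted bulk libraries. They were at 26.8 to 58.4 CPM in CB, against 712 to 10000 CPM in the sorted low-cell libraries. A PEN2 low-cell library held 399694 to 500622 gene counts, an R4d library 1001162 to 1154010, a CB library 340527 to 415414 and a plate 2444192 to 5783837, whereas the read depth of the bulk libraries is unknown.

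In the bulk libraries shakB was the highest neuronal innexin except in both EPG SS00096 libraries, where Inx7 was higher, and its level separated EPG from D7 and PEG. The 4 D7 libraries held 18.02 and 10.24 FPKM (SS02238) and 15.03 and 25.18 FPKM (SS30295). The 4 EPG libraries held 0.32 and 1.42 FPKM (SS00096) and 1.51 and 5.41 FPKM (SS00131). PEG replicates 1 and 2 held 27.42 and 32.97 FPKM, so the glia-rich library was the lower of the pair. PEN2 replicates 1 and 2 held 33.21 and 4.96 FPKM, a spread wider than that of any other type, and the high value was in the library with Gad1. By the middle part of the sample number, replicate 1 went with PEG and D7 SS30295, and replicate 2 with EPG SS00131. WB replicates 1 and 2 held 76.71 and 73.82 FPKM. All EPG libraries lay below all D7, PEG and WB libraries, and the highest EPG library lay above the lower PEN2 library. Groups do not overlap in 7.34% of the tested genes between EPG and D7, 16.1% between EPG and PEG and 51.4% between EPG and WB.

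The mean level of shakB was 2.17 ± 2.23 FPKM in EPG (SD, n = 4), 17.1 ± 6.26 in D7 (n = 4), 19.1 ± 19.98 in PEN2 (n = 2), 30.2 ± 3.92 in PEG (n = 2) and 75.3 ± 2.04 in WB (n = 2). On the log2(scaled FPKM + 1) scale, shakB was higher by 2.81 ± 0.52 in D7 than in EPG (SE, limma adjusted p = 0.00802), and this call held under all 23 alternatives. EPG minus PEG was -3.63 ± 0.63 (limma adjusted p = 0.00945), and it was not called without PEG replicate 1 (limma adjusted p = 0.0588) or in a fit of only these groups (limma adjusted p = 0.064). EPG minus PEN2 was -2.66 ± 0.63 at a limma adjusted p of 0.0494, which was lost under 19 of the 23 alternatives. Without PEN2 replicate 1 this difference was -1.56, and without replicate 2 it was -3.78, each from 1 PEN2 library. The neighbours D7 and PEN2 (0.15, limma adjusted p = 0.976), PEG and PEN2 (0.97, adjusted p = 0.65) and D7 and PEG (-0.81, adjusted p = 0.639) did not differ beyond their spread.

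Against whole brain, shakB fell by 3.85 ± 0.63 in EPG (limma adjusted p = 0.00123). The difference from WB was -1.04 ± 0.63 in D7 and -1.19 ± 0.73 in PEN2 (both limma adjusted p = 0.466) and -0.23 ± 0.73 in PEG (adjusted p = 0.955), and none of these was called. PEG minus WB was -0.28 without PEG replicate 1 and -0.25 without replicate 2. Scaling divided the WB values by 1.96 and 1.95 and those of the sorted libraries by 0.698 to 1.08, so unscaled FPKM set WB higher than the fitted values do. Of the FPKM, rRNA made up 38.0% and 40.8% in WB, 41.9% in PEG replicate 1 and 69.1% to 80.5% in the other sorted libraries. After scaling, shakB stood at 39.07 and 37.81 in WB and at 34.06 and 31.37 in PEG. In bulk samples, fewer cells of a type and less RNA per cell cannot be told apart.

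**Figure D1:**
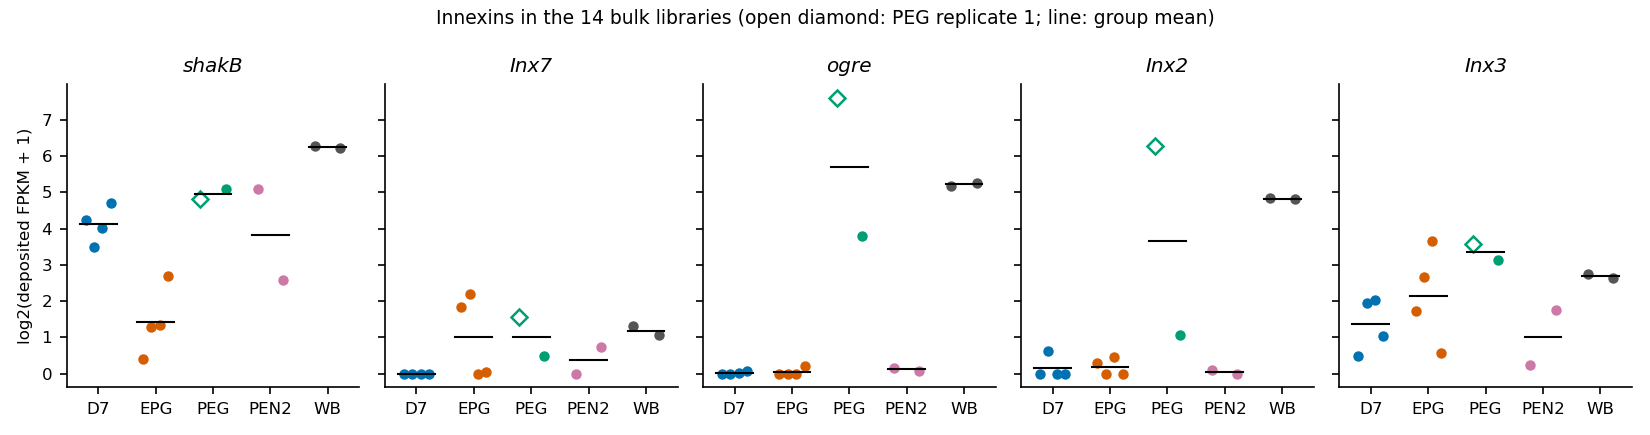
Level of 5 innexins in the 14 bulk libraries, as log2 of the deposited FPKM plus 1 on the vertical axis, by cell type on the horizontal axis. Points are libraries, lines are group means and the open diamond is PEG replicate 1, which holds the highest ogre (192.05 FPKM) and Inx2 (75.91 FPKM).

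The other neuronal innexins were low in the bulk libraries. Inx7 was listed at 0 in all 4 D7 libraries and stood at 2.56 and 3.60 FPKM in EPG SS00096, 0.00 and 0.04 in EPG SS00131, 1.95 and 0.39 in PEG, 0.00 and 0.68 in PEN2 and 1.48 and 1.08 in WB. Within EPG it was thus detected above 1 FPKM in both libraries of one driver line and in neither of the other. No Inx7 difference passed the limma test in the 4 comparisons with WB or the 6 between sorted types. Inx6 was above 0 in only EPG SS00096 replicate 2 (0.39 FPKM) and WB (0.03 and 0.17), and did not pass the filter of 1 FPKM in 2 libraries.

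The glial innexins were at or near 0 in D7, EPG and PEN2 and present in PEG and WB. The level of ogre was 0.00, 0.00, 0.02 and 0.06 FPKM in D7, 0.00, 0.00, 0.00 and 0.16 in EPG and 0.11 and 0.06 in PEN2. It was 35.38 and 37.45 FPKM in WB, 192.05 in PEG replicate 1 and 12.84 in PEG replicate 2. All 10 libraries of D7, EPG and PEN2 thus lay below every PEG and WB library, and PEG replicate 1 lay above WB and replicate 2 below it. Non-overlap was common among all tested genes, at 50.4% for D7, 51.4% for EPG and 73.1% for PEN2 against WB, and at 18.3%, 16.1% and 31.2% against PEG.

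Relative to WB, ogre fell by 4.26 ± 0.89 in D7 (limma adjusted p = 0.00703), fell by 4.24 ± 0.89 in EPG (adjusted p = 0.00745) and fell by 4.15 ± 1.03 in PEN2 (adjusted p = 0.0263). These sizes are limited by the added 1, since the sorted levels lay under it. In PEG the difference was 1.52 ± 1.03 (limma adjusted p = 0.685), and it was 3.53 with replicate 1 alone and -0.57 with replicate 2 alone. The comparison of PEG with WB thus rested on which replicate was used.

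Between sorted types, ogre was called lower in D7 and EPG than in PEG under all 23 alternatives, including fits left with 1 PEG library. D7 minus PEG was -5.79 ± 0.89 on the log2 scale (limma adjusted p = 0.00353) and EPG minus PEG was -5.76 ± 0.89 (adjusted p = 0.00487). Without PEG replicate 1 these differences were -3.72 and -3.69, from 1 PEG library with no spread of its own. PEG minus PEN2 was 5.67 ± 1.03 (limma adjusted p = 0.017) and 3.60 without PEG replicate 1. The PEG and PEN2 difference was not called with a pseudocount of 5 (limma adjusted p = 0.0522), in a fit of only these groups (adjusted p = 0.462) or without PEN2 replicate 2. The 21 glia markers moved with ogre: replicate 2 of PEG, at 220.34 FPKM, still lay above the 4.52 to 52.43 FPKM of the D7, EPG and PEN2 libraries, and their part in the ogre difference was not tested.

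Inx2 showed the same layout of libraries at lower levels. It stood at 0.00 to 0.55 FPKM in D7, 0.00 to 0.38 in EPG and 0.07 and 0.00 in PEN2, against 27.46 and 27.22 in WB. In PEG it stood at 75.91 in replicate 1 and 1.09 in replicate 2, so that the replicates lay on either side of WB. With all libraries no Inx2 difference was called. D7 minus WB was -3.69 ± 1.11 (limma adjusted p = 0.0552), EPG minus WB -3.69 (adjusted p = 0.0592) and PEN2 minus WB -3.85 (adjusted p = 0.107). The fit takes 1 spread per gene over all types, and PEG replicates 1 and 2 lay at 6.57 and 1.03 on its log2 scale. The part of this gap in the missing calls was not tested. Without PEG replicate 1 Inx2 was lower than in WB in D7 (limma adjusted p = 2.58e-05), EPG (adjusted p = 2.62e-05) and PEN2 (adjusted p = 7.35e-05). PEG minus WB was then -2.89, and without PEG replicate 2 it was instead 2.59, each from 1 PEG library.

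Of the 8 innexins, 5 passed the filter on low FPKM, ogre and Inx2 only through PEG and WB, where they are high, so the counts that follow are a description. They gave 4 calls in 20 tests against WB, all lower in sorted cells, where 8.41% of all tests were called over the same comparisons (D7 10.3%, EPG 9.48%, PEG 6.14%, PEN2 7.73%). They gave 6 calls in 30 tests between sorted types, where 2.95% of all tests were called (3.49% for D7 and EPG, 3.35% for D7 and PEG, 4.31% for D7 and PEN2, 2.31% for EPG and PEG, 2.55% for EPG and PEN2 and 1.68% for PEG and PEN2). The comparisons with WB share their 2 control libraries, and all 4 calls were lost when either was left out (limma adjusted p from 0.0699 to 0.431), as was ogre in PEN2 without either PEN2 library (adjusted p = 0.0774 and 0.0877). Inx3 was detected in all 14 bulk libraries, at 0.41 to 3.05 FPKM in D7, 0.48 to 11.57 in EPG, 11.01 and 7.78 in PEG, 0.19 and 2.36 in PEN2 and 5.74 and 5.28 in WB, and no Inx3 difference was called. PEG minus WB for Inx3 was 1.14 without PEG replicate 1 and 1.87 without replicate 2, and neither was called. Inx3 lies on chromosome arm 3R within the gene spg on the other strand, and the annotated exons of the 2 genes do not overlap. Whether the counting used strand is not stated, so spg reads from outside its exons may count as Inx3. The level of spg was 2.87 to 28.11 FPKM in D7, EPG and PEN2, 6.13 and 7.01 in PEG and 11.88 and 12.29 in WB. The part of spg in the Inx3 level was not tested. Inx5 was above 0 only in WB replicate 1 (0.34 FPKM) and zpg only in WB (0.13 and 0.04 FPKM).

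The balance of neuronal and glial innexins differed between libraries in the same way. Of the summed FPKM of shakB, Inx6, Inx7, ogre and Inx2, the glial pair made up 90.1% in PEG replicate 1, 29.5% in PEG replicate 2 and 44.5% and 46.3% in WB. It made up 0.00% to 5.10% in the D7 libraries, 0.539% and 1.05% in the PEN2 libraries and 0.00% to 20.1% in those of EPG, where both sums were low. The 20.1%, in EPG SS00131 replicate 1, came from 0.38 FPKM of Inx2 beside 1.51 FPKM of shakB. As a share of all 8 innexins, shakB made up 75.2% to 97.8% in D7 and 98.9% and 61.5% in PEN2, and 5.90% to 88.8% in EPG, where Inx3 and Inx7 together made up most of the rest in all 4 libraries.

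**Figure D2:**
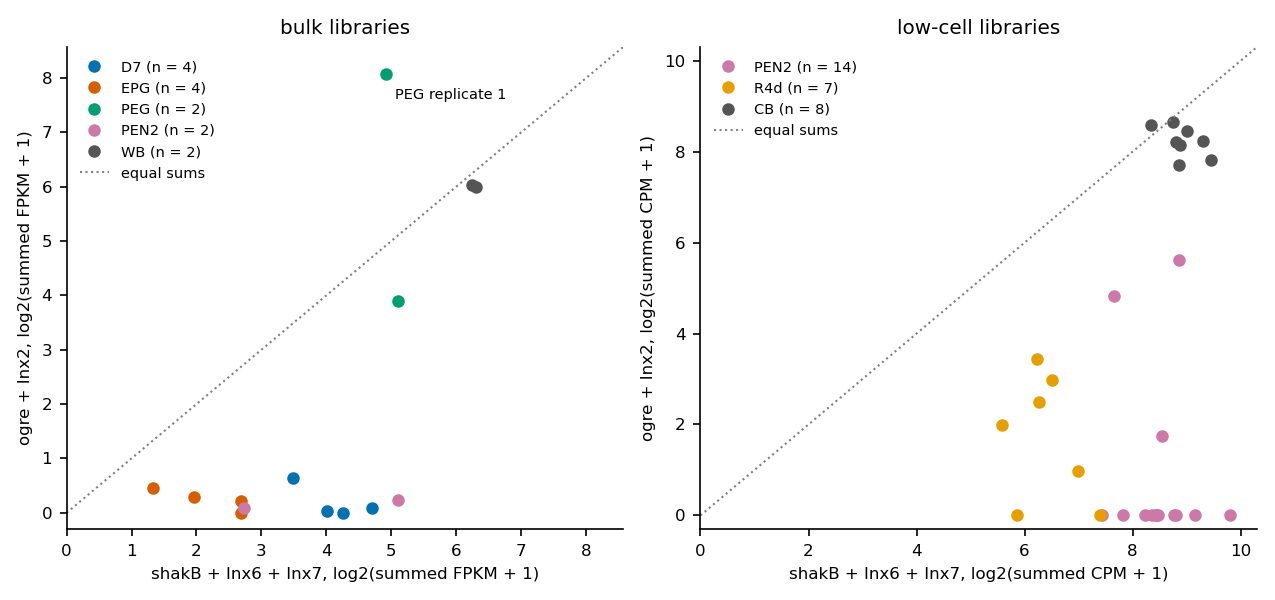
Summed glial innexins (vertical axis) against summed neuronal innexins (horizontal axis), both as log2 of the sum plus 1, in FPKM for the 14 bulk libraries (left) and CPM for the 29 low-cell libraries (right). Points are libraries and the dotted line marks equal sums; PEG replicate 1 is the bulk library farthest above it, with 90.1% glial.

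Genes whose bulk levels ran most like an innexin over the 12 sorted libraries were listed by Pearson correlation among 3346 genes, as a description, since these libraries share their protocol and PEG replicate 1 can set such a value. For ogre they were Tsp5D (r = 0.998), CG1552 (0.997), CG31008 (0.997), the glial glutamate transporter Eaat1 (0.993) and CG7607 (0.984), and r was 0.933 to 0.992 over the 11 libraries without PEG replicate 1. Of those 11, PEG replicate 2 held 12.84 FPKM of ogre and the other 10 at most 0.16, so 1 library can set these values too. For Inx2 the genes were the ammonium transporter family gene Rh50 (0.987), CG31997 (0.987), CG43693 (0.978), vir-1 (0.976) and CG7888 (0.974), and r fell to between 0.386 and 0.680 without PEG replicate 1. For shakB they were CG34351 (0.927), the homophilic adhesion protein Fas3 (0.923), the homeodomain zinc-finger gene zfh2 (0.921), Snoo (0.878) and the JNK phosphatase puc (0.872), with r of 0.863 to 0.930 without it. The highest library of all 5 genes listed for ogre and of all 5 listed for Inx2 was PEG replicate 1. This follows from the choice, since ogre and Inx2 peak there and a mean of at least 5 FPKM favours genes high there.

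**Figure D3:**
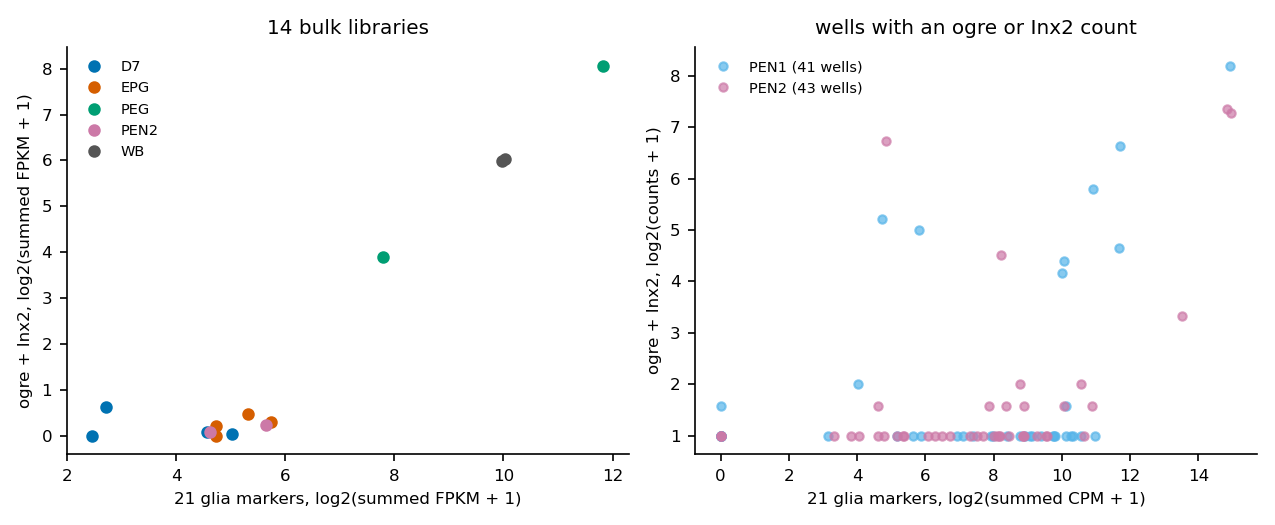
Summed ogre and Inx2 (vertical axis, log2 of the sum plus 1) against the summed 21 glia markers (horizontal axis, log2 of the sum plus 1) in the 14 bulk libraries (left, FPKM) and in the 84 single-cell wells with at least 1 ogre or Inx2 count (right, innexin counts against marker CPM). In bulk, PEG replicate 1 is highest on both axes; among wells, 60 of 84 hold a single count, over a wide range of marker levels.

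The genes of other junctions were counted beside the innexins, from a list of 24 septate and 6 adherens junction genes, of which nrv2, Gli and moody are also among the glia markers. Septate junctions seal the glial blood-brain barrier, and 23 of the 24 genes were tested in bulk. Of these, 3 fell relative to WB in each of D7, EPG and PEN2 and 1 in PEG, and none rose, where 10.3%, 9.48%, 7.73% and 6.14% of all genes were called, so that the counts are near the background. The medians were -0.79, -0.24, -0.60 and -0.47 in the same order beside -0.19, -0.22, -0.42 and -0.21 over all genes. Those that fell in D7 were nrv2, a sodium pump subunit expressed in glia (-6.10, limma adjusted p = 0.000514), Gli (-0.99, adjusted p = 0.000137) and bou (-0.79, adjusted p = 0.00196), the neighbour of ogre and Inx7. The scaffold dlg1, which neurons also use at synapses, was not called in D7 (-0.36, adjusted p = 0.732). Of the 6 adherens junction genes, 2 fell in D7 and 1 in each of the other types, among them the E-cadherin gene shg in all 4 types (-0.92 to -1.32, limma adjusted p from 0.00331 to 0.0319). The limma call of shg in PEG was lost without PEG replicate 2. The 21 glia markers gave 11 genes lower than WB in D7, 11 in EPG, 9 in PEN2 and 5 in PEG and none higher, with medians of -2.42, -1.87, -2.43 and -0.47. The PEG replicates lay on either side of WB. Without replicate 1 the median of the glia markers in PEG was -1.69, beside -0.36 over all genes, and without replicate 2 it was 0.83, beside -0.33. Gs2, the glutamine synthetase of glia, stood at 0.29 ± 0.44 FPKM in D7 and 378.52 ± 24.9 in WB.

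The authors' deposited table of the same libraries lists shakB at -2.23 in D7 (FDR 0.0243) and -5.15 in EPG (FDR 0.0133) on the log2 scale, as sorted minus brain. For ogre the authors' deposited tables give -8.05 in D7 (FDR 0.00111), -7.87 in EPG (FDR 0.00435) and -7.49 in PEN2 (FDR 0.0787), and for Inx2 -6.79 in D7 (FDR 0.00611) and -6.72 in EPG (FDR 0.00872). In the authors' deposited table for PEG no innexin had an FDR under 0.05, with ogre at 1.04 (FDR 0.706) and shakB at -1.58 (FDR 0.165), and 0.0% of all features passed it. Over all features, the authors' deposited tables pass 4.64% in D7, 3.16% in EPG and 0.0790% in PEN2. They thus called shakB in D7 and Inx2 in D7 and EPG, which the limma fit of FPKM did not, and did not call ogre in PEN2, which that fit did.

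In the low-cell libraries, PEN2 neurons held shakB near the level of the central brain and R4d ring neurons held less. R4d neurons are inhibitory neurons that send axons to the ellipsoid body. Since all R4d libraries come from 1 listed sample and all CB libraries from another, the low-cell p-values measure the spread between libraries, which may be technical. The lowest, median and highest level of shakB was 146, 340 and 878 CPM in the 14 PEN2 libraries, 34.9, 58.1 and 167 CPM in the 7 R4d libraries and 323, 464 and 698 CPM in the 8 CB libraries. No R4d library reached the lowest CB library, and 25.0% of the tested genes had no overlap between these groups, and the lowest PEN2 library lay below the highest R4d library. R4d minus CB was -2.68 ± 0.34 on the log2 scale (edgeR adjusted p = 7.41e-08) and PEN2 minus R4d was 2.15 ± 0.31 (edgeR adjusted p = 1.09e-06). PEN2 minus CB was -0.53 ± 0.27 (edgeR adjusted p = 0.203). The 2 sample entries of PEN2 gave 423 ± 202 CPM (SD, n = 8 libraries) and 313 ± 159 CPM (n = 6).

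**Figure D4:**
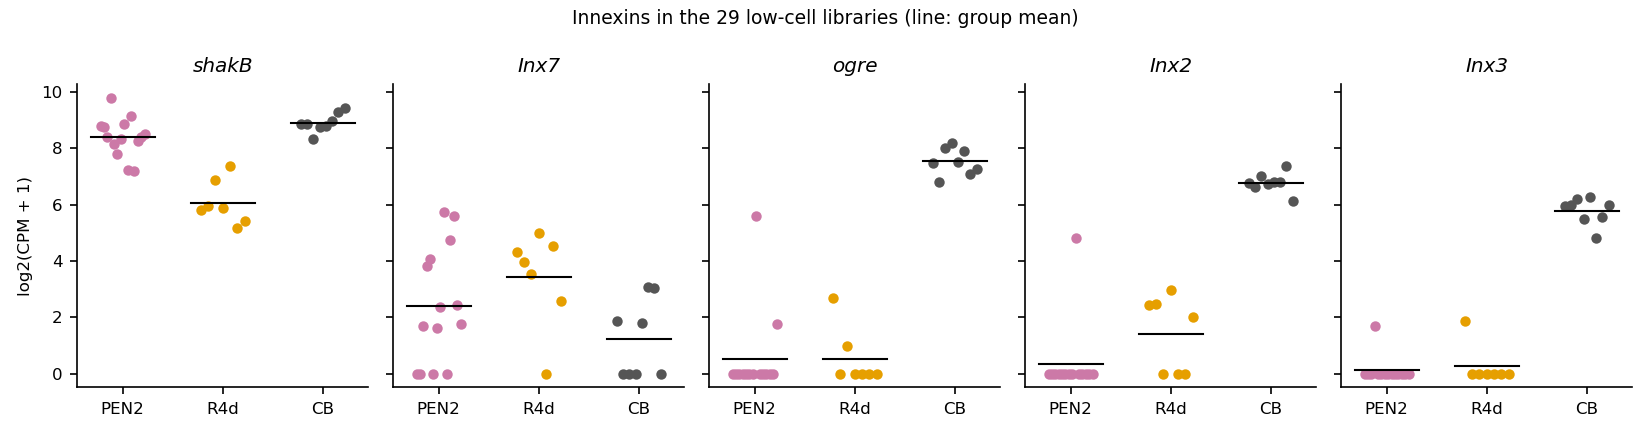
Level of 5 innexins in the 29 low-cell libraries, as log2(CPM + 1) on the vertical axis, by group on the horizontal axis (14 PEN2, 7 R4d and 8 CB). Points are libraries and lines are group means; ogre, Inx2 and Inx3 lie at 0 in most sorted libraries and above 4 in every CB library, with PEN2 libraries 8 (ogre) and 9 (Inx2) apart.

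The glial innexins and Inx3 were near 0 in both sorted groups. The CPM of PEN2 and CB do not overlap in 7.2% of the tested genes, and for ogre, Inx2 and Inx3 no sorted library reached the lowest CB library. The level of ogre was 111, 180 and 294 CPM (lowest, median, highest) in CB, whereas its median was 0 in PEN2 and in R4d and its highest value 48.0 CPM in PEN2 and 5.38 CPM in R4d. Of the 24 ogre counts in PEN2, 23 were in library 8, which also had the highest sum of glia markers in its group (588.9 CPM, against 143.58 to 386.47 in the other 13). Of the 11 Inx2 counts in PEN2, all were in library 9, where the glia markers summed to 187.64 CPM, within the range of the others.

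Relative to CB, ogre fell by 5.79 ± 0.87 in PEN2 (edgeR adjusted p = 1.93e-06) and fell by 7.40 ± 1.25 in R4d (edgeR adjusted p = 1.06e-05). Inx2 ran at 69.8 to 163 CPM in CB and at 0.00 to 6.93 CPM in R4d, and fell by 5.91 ± 0.92 in PEN2 (edgeR adjusted p = 3.56e-06) and fell by 5.23 ± 1.15 in R4d (edgeR adjusted p = 0.000448). Inx3, at 27.4 to 75.6 CPM in CB, held 1 count in all PEN2 libraries and 3 in all R4d libraries, so the fitted changes depend on the prior count. From the summed counts, Inx3 was 359 times as high in CB as in PEN2 (exact 95% interval from counting error 63.6 to 14250) and 141 times as high as in R4d (47.5 to 691), and edgeR called both (adjusted p = 3.26e-09 and 1.44e-06). The glia markers at large moved with these genes: the 5 defining markers summed to 6370 to 6794 CPM in a CB library, to 7.17 to 59.1 in one of R4d and to 2.30 to 378 in one of PEN2, and 15 to 18 of the 21 markers were at 0 in each PEN2 library. Their part in the innexin differences was not tested.

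Between PEN2 and R4d, ogre (1.62, edgeR adjusted p = 0.297), Inx2 (-0.68, adjusted p = 0.676) and Inx3 (-0.79, adjusted p = 0.552) were not called. The Inx2 value rested on library 9, since the other 13 PEN2 libraries held 0 counts, against 21 counts in all R4d libraries. Of the 8 innexins, 4 passed the count filter, of which ogre, Inx2 and Inx3 passed through CB, where they are high. The 4 gave 8 calls in 12 tests, 6 of them these genes being lower than in CB, so the count is a description; 23.0% of all tests were called (18.4% for PEN2 and CB, 27.4% for R4d and CB, 23.2% for PEN2 and R4d). The 2 comparisons with CB share its 8 libraries. The authors' deposited tables list the same members, with shakB at -2.73 (FDR 3.75e-12) and ogre at -7.58 (FDR 2.66e-16) in R4d, and shakB at -0.48 (FDR 0.248) and ogre at -5.79 (FDR 2.82e-05) in low-cell PEN2. Of all features, 19.1% in R4d and 12.9% in low-cell PEN2 had an FDR under 0.05 there.

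Inx7 was sparse in the low-cell libraries and did not pass the count filter. It held 73 counts in 10 of 14 PEN2 libraries, 112 counts in 6 of 7 R4d libraries and 8 counts in 4 of 8 CB libraries, or 0.00, 3.27 and 52.5 CPM (lowest, median, highest) in PEN2, 0.00, 14.8 and 31.2 in R4d and 0.00, 1.22 and 7.48 in CB. All 3 groups overlapped. In PEN2, libraries 9 and 12 held 21 Inx7 counts each and library 11 held 11, and library 9 is also the library with the Inx2 counts. Summed over libraries, Inx7 was 4.50 times as high in PEN2 as in CB (exact 95% interval 2.17 to 10.8) and 5.85 times in R4d (2.87 to 13.9), intervals that cover counting error only. With no filter, edgeR did not call either (adjusted p = 0.237 and 0.14). The PEN2 entries differed in Inx7, at 4.67 ± 6.26 CPM (n = 8) and 22.2 ± 23.7 CPM (n = 6), a difference within their spread that was not tested. Inx6 held 1 count in PEN2, 1 in R4d and 0 in CB, and Inx5 and zpg held 0 in every library, which allows a level of up to 0.473 CPM in PEN2, 0.401 in R4d and 0.959 in CB at a floor of 3 counts over a group.

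The glial pair made up a median of 0.00% of the summed neuronal and glial innexin CPM in PEN2 (0.00% to 12.1%), 5.75% in R4d (0.00% to 11.7%) and 38.8% in CB (24.3% to 54.4%). These CPM are not scaled to gene length, so the shares serve only to compare libraries. Among the other junction genes, 17 septate junction genes were tested and 2 rose and 1 fell in PEN2 relative to CB, with 3 and 1 in R4d, at or below the 18.4% and 27.4% of all genes called. The scaffold gene scrib rose in both (1.53, edgeR adjusted p = 0.00111, and 2.78, adjusted p = 6.22e-07) and nrv2 fell in both (-4.86, adjusted p = 2.47e-09, and -7.11, adjusted p = 3.31e-09). The list medians were -0.43 and -0.21, beside -0.14 and -0.09 over all genes. The adhesion gene ed, at 52.0 ± 31.0 CPM in CB and 149 ± 54.99 in PEN2 (1.38, edgeR adjusted p = 0.00836), was at 0 in all 7 R4d libraries.

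The single-cell plates asked which of these genes were detected in individual PEN1 and PEN2 neurons, the related types of the compass network that shift its heading signal as the fly turns. After wells with under 500 genes and the positions E12 to H12 were left out, 380 PEN1 and 362 PEN2 wells remained, with a median of 46787 and 59965 counts. No well name and no set of counts occurred more than once among them. At least 10 reporter counts were present in 241 PEN1 and 106 PEN2 wells, so most PEN2 wells lacked that level of the reporter. The wells are labelled as single cells, and doublets were not called.

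Counts of shakB summed over the wells of a plate were 466.3, 513, 991, 934 and 592 CPM on the 5 PEN2 plates. They were 340, 175, 475, 387.1, 308 and 292 CPM on the 6 PEN1 plates. The plates overlapped only where the highest PEN1 plate exceeded the lowest PEN2 plate, and the means were 330 ± 100 CPM in PEN1 and 699 ± 245 CPM in PEN2 (SD over plates). In wells with at least 10 reporter counts the means were 261 ± 154 CPM in PEN1 and 574 ± 98.0 CPM in PEN2. The other wells gave 593 ± 325 and 773 ± 347 CPM and were most of the PEN2 wells. The part of the reporter level in the plate difference was not tested. PEN1 minus PEN2 was -1.07 ± 0.26 on the log2 scale, which was not called (edgeR adjusted p = 0.0796). It was called by DESeq2 (-1.07, adjusted p = 0.00726), by edgeR with no filter (adjusted p = 0.0073) and without PEN1 plate 3 (adjusted p = 0.0439). The share of all genes called by DESeq2, with no filter or without that plate is not given here. In the main edgeR fit 0.256% of the 6249 tested genes were called, or 16 genes. The innexins gave 0 edgeR calls in 3 tests, 1 of them that of shakB. The others were Inx2 (0.04, adjusted p = 1) and Inx7 (1.98 ± 1.45, adjusted p = 0.999).

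More PEN2 than PEN1 wells held shakB. After each well was thinned to 10000 counts, which left 336 PEN1 and 323 PEN2 wells and left out 44 and 39 shallower ones, shakB was detected in 26.6% ± 7.95 of the wells of a PEN1 plate and 46.9% ± 6.36 of those of a PEN2 plate (SD, n = 6 and 5 plates). The lowest PEN2 plate was at 40.8% and the highest PEN1 plate at 36.8%, so the plates did not overlap. The difference was -20.3 percentage points (exact two-sided permutation test over 462 arrangements of the plates, p = 0.00433, where 0.00216 is the smallest possible). By the same exact permutation test 3.8% of the 14117 detected genes had a p under 0.05, and 2.33% had one with the lower share in PEN1. Adjusted over all of those genes, the permutation p of shakB was 0.672 and no gene passed. Without thinning, the shares were 37.7% ± 6.15 and 58.0% ± 8.05.

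Free RNA can give counts in wells without a cell. In the wells with under 500 genes shakB was detected in 18.6% of 172 PEN1 wells and 23.5% of 98 PEN2 wells, at a median of 3458.5 and 3025 counts per well. The lowest thinned PEN1 plate, at 15%, lay under that share, so detection of a single shakB count was not read as expression there. Whether the wells with under 500 genes held no cell was not tested. With at least 5 shakB counts asked of a thinned well, 16.1% ± 4.20 of PEN1 and 33.1% ± 4.77 of PEN2 wells passed (exact permutation p = 0.00216, the smallest possible, a threshold chosen after the data were seen). Among wells with at least 10 reporter counts the shares were 21.3% ± 7.40 and 35.6% ± 7.64 (exact permutation p = 0.0216).

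Among single wells shakB ranged from 0 to over 100 counts within each type. In PEN1, 235 of 380 wells held 0 counts, 71 held 1 to 9 and 74 held 10 or more, of which 22 held at least 100. In PEN2, 155 of 362 wells held 0 counts, 85 held 1 to 9 and 122 held 10 or more, of which 68 held at least 100. The median of the wells with any shakB was 11 counts in PEN1 and 42 in PEN2, and the highest wells held 1023 and 661. These wells share plates, so they are not replicates of a type.

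**Figure D5:**
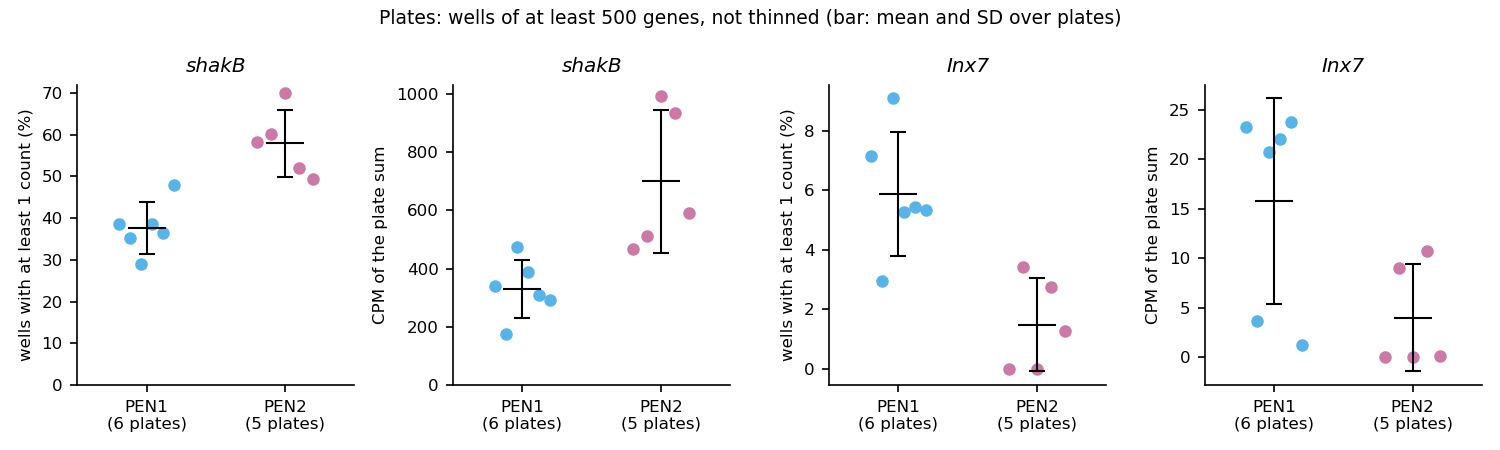
Share of wells with at least 1 count (panels with a percent axis, not thinned) and CPM of the plate sum (panels with a CPM axis) for shakB and Inx7, by plate, in PEN1 (6 plates) and PEN2 (5 plates). Points are plates and bars are the mean and SD; for shakB all PEN2 plates lie above all PEN1 plates in the share of wells, and for Inx7 the plate sums of 4 PEN1 plates lie above those of all PEN2 plates.

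Inx7 was rarer and came from few wells. It was detected in 22 of 380 PEN1 wells, with 373 counts, of which 230 were in the 3 highest wells, and in 6 of 362 PEN2 wells, with 111 counts, of which 105 were in 3 wells. The plate sums ran from 1.25 to 23.7 CPM in PEN1 and from 0.00 to 10.7 CPM in PEN2, and overlapped. After thinning, the shares were 2.98% ± 2.62 and 0.83% ± 1.23 (exact permutation p = 0.108). The difference had an exact permutation p of 0.00649 without thinning (5.87% ± 2.07 and 1.48% ± 1.56), 0.00216 at 5000 counts per well and 0.0317 without PEN1 plate 6. In the wells under 500 genes Inx7 was detected in 1.16% of PEN1 and 0.00% of PEN2. Of the 373 PEN1 counts, 364 were in wells with at least 10 reporter counts.

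The glial innexins were found in few wells and mostly at a single count. At least 1 count of ogre or Inx2 occurred in 84 of the wells, of which 60 held exactly 1 and 12 held 10 or more. Of the 193 ogre counts of PEN2, 172 were in 3 wells of plate 4 in which the glia markers summed to at least 10000 CPM, and so were 153 of the 308 Inx2 counts and 35 of the 46 Inx3 counts. Those 3 wells held 4 to 5 of the 5 defining glia markers, 433 to 655 CPM of the neuron markers, fewer than 10 reporter counts and 2 shakB counts. In PEN1, 192 of 275 ogre and 102 of 338 Inx2 counts were in 1 of 2 such wells, on plate 2, which held 436 reporter counts and 0 shakB counts. The threshold of 10000 CPM was chosen after the data were seen.

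Outside those wells, Inx2 occurred at high counts in single wells with both few and many glia markers. A PEN1 well of plate 4 held 98 Inx2 counts beside 136 shakB counts, 3348.3 CPM of the glia markers and 2 defining glia markers. A PEN1 well of plate 5 held 55 Inx2 counts with 1939.6 CPM of the glia markers and 0 defining markers. A PEN2 well of plate 3 held 106 Inx2 counts beside 159 shakB counts, 27.5 CPM of the glia markers and 0 defining glia markers, and a PEN1 well of plate 6 held 36 Inx2 counts with 25.6 CPM of the glia markers. Neuronal innexins alone were detected in 128 PEN1 wells (33.7%) and 190 PEN2 wells (52.5%), glial innexins alone in 15 (3.95%) and 20 (5.52%), both in 26 (6.84%) and 23 (6.35%) and neither in 211 (55.5%) and 129 (35.6%). The remaining members were sparse, with 3 and 9 counts of Inx6, 28 and 46 of Inx3, 5 and 6 of Inx5 and 2 and 14 of zpg in PEN1 and PEN2. In shares of wells, none of the 7 innexins other than shakB had an unadjusted p under 0.05 between the types after thinning to 10000 counts (exact permutation p of 0.108 or more), whereas Inx7 did under the other settings given above. In PEN1, zpg was detected in 0.526% of the wells, below the 1.74% of the wells under 500 genes, so it was not read as expression.

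In the reference annotation (Ensembl BDGP6.54, whose build may differ from that of the deposited tables) 6 of the 8 genes lie on chromosome X. The genes ogre, bou, Inx7 and Inx2 follow each other there as protein-coding neighbours, so both glial innexins and Inx7 share a stretch of chromosome. Over the bulk libraries Inx7 was highest in the 2 EPG SS00096 libraries (2.56 and 3.60 FPKM), in which ogre was listed at 0. Outside these it was highest in PEG replicate 1 (1.95 FPKM), where ogre and Inx2 were highest too. Exons of ogre overlap lncRNA:CR44084 on the other strand, and reads of this pair cannot be told apart if the counting ignored strand. The gene shakB is annotated with 8 transcripts and ogre with 6, and the deposited values are per gene, so transcripts were not analysed here.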

How the data were processed

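Deposited tables of 14 bulk, 29 low-cell and 11 plate libraries were used. The bulk values are taken as FPKM as deposited by the authors, a unit inferred from the values because the file headers do not name it, and their read depth is unknown. The low-cell and single-cell tables hold whole-number counts deposited by the authors with no normalization, and whether they are UMIs is not stated. The log2 fold changes, p-values and FDR of the authors' deposited comparison tables were copied, with the sign turned to sorted minus brain. The submitters' processing notes name STARsolo and edgeR without role or version, and the genome build, annotation and use of strand are not given in the sources used here. The origin of replicates is not stated, and the low-cell libraries of R4d and of CB are each listed under 1 sample, so n counts libraries or plates and p-values measure the spread between them. Where labels differed on a driver line, the sample characteristics were followed.

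Bulk FPKM were scaled by TMM factors, log2-transformed after adding 1, and fitted together, 1 term per type, by limma 3.58.1 (mean-variance trend, 9500 genes of at least 1 FPKM in at least 2 libraries); this scale understates changes of low genes. Low-cell and plate counts were fitted with edgeR 4.0.16 (TMM, filterByExpr, quasi-likelihood; 5553 and 6249 genes). The form of the bulk test was set by the unit. A bulk fit that leaves 1 library in a group holds no spread of that group. A gene was called at a Benjamini-Hochberg adjusted p under 0.05 over all genes of a comparison. Shares of wells were compared by an exact permutation test over plates after thinning to 10000 counts. Their p-values had been planned for adjustment over the members and are instead given unadjusted and adjusted over all 14117 genes. Intervals cover counting error only.

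All 8 innexins were named, with up to 3 called and 1 uncalled gene of a fixed list per comparison by mean level, and the 5 genes most correlated with ogre, Inx2 and shakB among those of at least 5 FPKM on average; single wells and libraries were named after their values were seen. Members, roles and lists were chosen with earlier results of these data known. Alternatives were other scaling, pseudocounts of 0.1 and 5, no filter, fits of only the groups compared, library weights, a replicate block, DESeq2 1.42.0, other well filters and leaving out each library or plate; leaving out low-cell PEN2 libraries 8 and 9, leaving out glia-rich wells and a threshold of 5 counts per well were added after seeing the data. The fits were tested on simulated data. The software was R 4.3.3 and Python 3.11.15, with scipy 1.17.1 for tests, pandas 2.3.3 and numpy 2.4.6 for tables and matplotlib 3.10.9 for plots. Innexin sequences were not used here.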

Additional observations from a re-analysis of the deposited data

Results flagged for a closer look

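In 37 groups of 4 to 10 libraries or plates with any spread, the highest or lowest member value was tested for its gap to the rest by Dixon's rule, and 10 values stood apart, all of them the highest of their group. By chance the rule marks about 1 in 20 groups, a rate that does not apply to 5 of the 10, each the one value above 0 in its group, where the ratio is 1 by construction. In bulk these were Inx6 in EPG SS00096 replicate 2 (0.39 FPKM), ogre in EPG SS00131 replicate 2 (0.16 FPKM) and Inx2 in D7 SS02238 replicate 2 (0.55 FPKM), each in a group otherwise listed at 0. In the low-cell R4d libraries they were Inx6 in library 4 (0.867 CPM, 1 count) and, both in library 1, ogre (5.38 CPM, where the next library held 0.969) and Inx3 (2.69 CPM, where the others held 0).

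On the plates, ogre stood apart on PEN1 plate 2 (61.2 CPM, against 6.33 on the next plate) and on PEN2 plate 4 (32.04 CPM, against 1.76). On PEN2 plate 4, Inx3 (6.55 CPM) and zpg (2.00 CPM) stood apart too. Plate 4 holds the 3 PEN2 wells and plate 2 one of the 2 PEN1 wells whose glia markers sum to at least 10000 CPM; these wells hold 172 of 193 PEN2 ogre counts, 192 of 275 PEN1 ogre counts and none of the zpg counts.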

How the results depend on the processing

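Against WB the innexins gave 4 calls, which became 7 with no scaling, 1 with a pseudocount of 5, 10 with no filter (of 32 tests), 9 in fits of only the groups compared and 7 with library weights. With no scaling the calls among all 9500 genes rose too. They went from 979 to 1859 in D7, 901 to 1612 in EPG, 583 to 1006 in PEG and 734 to 1459 in PEN2. Shares over all genes under the other alternatives are not given here, so the counts of calls in this section are a description. Leaving out 1 library gave 0 to 9 calls, the fewest without a WB library and the most without PEG replicate 2, each with 1 library of that type left. All types share 1 spread per gene in the fit, and its part in these counts was not tested. Between sorted types the 6 calls became 3 in fits of only the groups compared and 4 to 8 with 1 library left out. With no scaling the median of all genes in D7 minus WB moved from -0.19 to -0.92, and the called genes split into 62 higher and 1797 lower instead of 167 and 812. PEG minus WB for Inx2 was 2.59 without PEG replicate 2 and -0.10 with it. The 8 low-cell calls held under every alternative, with 8 to 9 calls when library 8 or 9 was left out; the added one, Inx2 in PEN2 minus R4d without library 9, sets R4d against a group left at 0 counts by that choice. On the plates, 0 calls became 1 with DESeq2, with no filter and without PEN1 plate 3 (0 to 1 over plates left out), each time shakB. For shares of wells, the 1 member with an unadjusted permutation p under 0.05 (0 adjusted over all genes) became 2 without thinning, at 5000 counts and without PEN1 plate 6 (1 to 2 over plates left out). Libraries of the same replicate number within a driver line shared only the number (correlation of deviations -0.038 to 0.035 over 21 pairs of lines), and a fit with the replicate block gave 4 calls against WB and 5 between sorted types, the call lost being shakB in EPG minus PEN2 (adjusted p = 0.069). Over single members and alternatives, 1336 verdicts were unchanged, 33 passed the threshold newly, 37 no longer passed and 1 changed sign. Bulk depth is unknown, and the lowest plate and low-cell members rest on single counts.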
